A study of Mus musculus with 6 samples.

Results

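The 36 genes described here are induced by type I interferon and encode antiviral effectors, nucleic acid sensors, transcription factors and a chemokine. They were chosen by symbol from a list of such interferon-stimulated genes (ISGs), with earlier results of these data known. All 36 have a row among the 21492 genes of the deposited table. The table holds RNA-seq of osteoclasts (OCs), the multinucleated cells that resorb bone, from 3 Dcir-/- libraries, numbered 21, 22 and 83, and 3 WT libraries, numbered 3, 82 and 94. Dcir-/- mice lack Clec4a2, which encodes the C-type lectin receptor DCIR, an inhibitory receptor of myeloid cells that carries an immunoreceptor tyrosine-based inhibitory motif. Clec4a2 had 0.788, 1.15 and 0.496 CPM (defined below) in Dcir-/- libraries 21, 22 and 83, against 275, 239 and 289 CPM in WT libraries 3, 82 and 94, so the deleted gene was near 0 in the libraries labelled Dcir-/-. Both groups were on the C57BL/6J background, and the study used mice of 8 to 12 weeks. In both groups bone marrow cells received M-CSF at 20 ng/ml together with RANKL at 100 ng/ml, the cytokines that drive OC formation, and no interferon is named among the additions. The labels give day 4 with 2 days of RANKL. The study's methods give 2 days of M-CSF alone before RANKL is added, and for RNA-seq 4 days of M-CSF with RANKL. The times were not reconciled here. The deletion is present in every cell of the mice, whereas WT mice came from a commercial source and shared the rack of the Dcir-/- mice only afterwards. Genotype and origin of the mice therefore cannot be told apart. No source states that each library is a mouse or a culture of its own. The p-values thus cover the spread among libraries alone, and this spread may be technical.

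Type I interferons bind a receptor made of IFNAR1 and IFNAR2, whose kinases are JAK1 and TYK2. Their signal leads to the complex ISGF3, which holds STAT2 and IRF9 and binds the interferon-stimulated response element (ISRE) in the promoters of ISGs. In OC precursors, RANKL itself induces interferon-beta, which in turn restrains OC formation. Every value below is given in CPM, a scaled form of the authors' adjusted counts in which 1 CPM is 33.6 adjusted counts, from a mean library total of 33577739.2. Differences are log2 fold changes of Dcir-/- over WT OCs on log2(CPM + 1), with the SE and the Benjamini-Hochberg adjusted p from limma over 14047 genes of at least 1 CPM in 3 libraries. This scale understates the change of low genes.

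The ISRE is short enough to be read in the promoter itself. Promoter windows of RefSeq (GRCm38.p6, 250 bases before to 50 bases after the start of the gene) were at hand for 27 of the 36 genes. A search for GAAANNGAAA on both strands, overlapping matches included, found the element in 15 of the 27 (55.6%), whereas 3.9% of the 9899 tested genes with a window and 4.0% of all 27025 genes held it. The following 6 stretches are from the genes with a match that had the highest mean CPM, with each match in capitals (a match on the other strand appears as TTTC, any 2 bases, TTTC). Positions of the matches are counted from the start, with negative values before it. They are -41 to -32 in Ifi207, -130 to -115 in Bst2 and -36 to -27 in Trim30a. In Eif2ak2 they are 18 to 27, in Ddx58 2 to 11 and in Stat2 -222 to -213. The stretches are not aligned on the start. They come from Ifi207 (chr1:173741816-173741875, minus strand), Bst2 (chr8:71537562-71537627, minus strand), Trim30a (chr7:104465195-104465254, minus strand), Eif2ak2 (chr17:78882543-78882579, minus strand), Ddx58 (chr4:40239796-40239848, minus strand) and Stat2 (chr10:128270251-128270310, plus strand).
Ifi207: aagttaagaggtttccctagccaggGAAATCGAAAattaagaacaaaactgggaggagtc
Bst2: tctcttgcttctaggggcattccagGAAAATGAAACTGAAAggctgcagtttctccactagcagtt
Trim30a: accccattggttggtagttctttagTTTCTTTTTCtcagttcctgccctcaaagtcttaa
Eif2ak2: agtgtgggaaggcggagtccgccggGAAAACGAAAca
Ddx58: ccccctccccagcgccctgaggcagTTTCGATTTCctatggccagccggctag
Stat2: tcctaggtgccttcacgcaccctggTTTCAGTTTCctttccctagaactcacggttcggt

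Further stretches are from the other genes with 2 or more matches in a window, chosen after their values were seen. They come from Ifit1 (chr19:34640760-34640838, plus strand), Ifit3 (chr19:34583348-34583441, plus strand), Ifit3b (chr19:34607744-34607837, plus strand), Isg15 (chr4:156200850-156200921, minus strand) and Oas1a (chr5:120907505-120907570, minus strand).
Ifit1: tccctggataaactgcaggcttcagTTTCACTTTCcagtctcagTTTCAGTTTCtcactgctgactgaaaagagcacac
Ifit3: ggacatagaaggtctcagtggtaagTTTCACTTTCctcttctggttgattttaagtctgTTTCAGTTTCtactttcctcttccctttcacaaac
Ifit3b: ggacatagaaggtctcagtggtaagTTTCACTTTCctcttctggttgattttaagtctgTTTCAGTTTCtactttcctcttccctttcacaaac
Isg15: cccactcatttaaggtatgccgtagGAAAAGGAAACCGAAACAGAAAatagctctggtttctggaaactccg
Oas1a: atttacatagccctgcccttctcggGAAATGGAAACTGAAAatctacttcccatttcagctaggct

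In Isg15 the element occurs 3 times in a row from 78 to 57 bases before the start, each copy sharing 4 bases with the next. Bst2 and Oas1a hold 2 copies joined in the same way. In Ifit1, Ifit3 and Ifit3b the 2 copies are apart and lie on the other strand. The stretches of Ifit3 and Ifit3b are identical in 94 of 94 bases, although they lie in neighbouring genes of the Ifit cluster on chromosome 19. In Ddx58 and Eif2ak2 the match lies just after the start. The GAS element TTCNNNGAA, a promoter element of the response to interferon-gamma, was found in 6 of the 27 genes (22.2%) and in 8.1% of the tested genes. A match is a description of the letters and does not show that the site is used.

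In all 36 ISGs the mean of the Dcir-/- libraries was below that of the WT libraries, and the median log2 fold change was -1.06 (range -1.79 to -0.17) beside 0.01 for all genes tested. The highest of the 6 values was that of WT library 3 in 35 of the 36 genes, and the lowest that of Dcir-/- library 21 in 33. The difference passed the adjusted threshold of 0.05 in 0 of the 36. Across all genes tested, 46.1% had a lower mean, 6.68% were lower at an unadjusted p under 0.05, 9.34% were lower with no overlap between the groups and 0.292% were lower after adjustment. Among the 36 ISGs, 30 were lower at an unadjusted p under 0.05 by limma, and 26 had all 3 Dcir-/- libraries below all 3 WT libraries. Without Dcir-/- library 21, 15 of the 36 were lower at an unadjusted p under 0.05, beside 3.90% of all genes. The smallest adjusted p was 0.0954, for Ifi35, an interferon-induced leucine zipper protein. All 36 passed the filter on low values, 1 of them (Ifi44) through the WT libraries alone. These genes are induced by one signal and are not independent of each other, so the counts do not add up as separate tests. In bulk RNA, fewer cells that express a gene cannot be told apart from less RNA per cell.

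**Figure D1:**
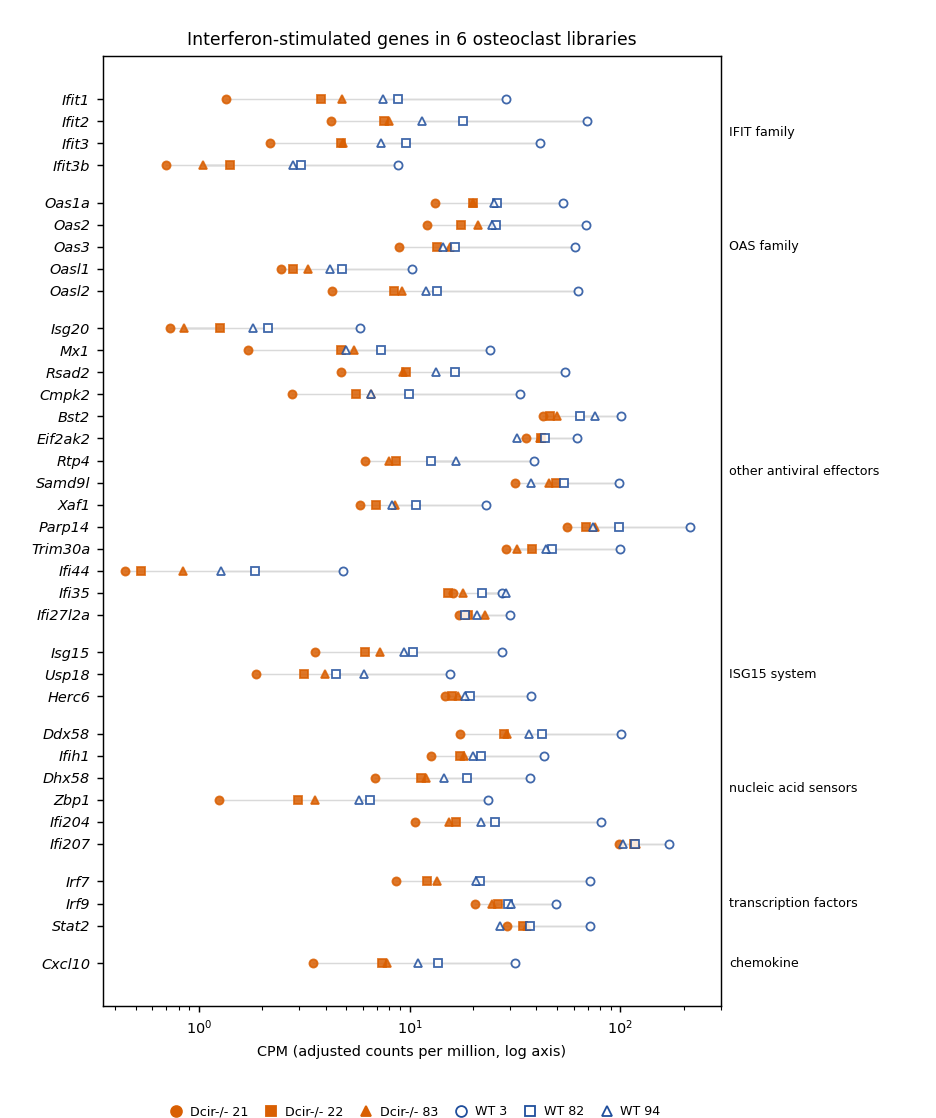
CPM of each of the 36 ISGs (log axis) in the 3 Dcir-/- libraries (filled orange) and the 3 WT libraries (open blue), with genes grouped by role. WT library 3 is the rightmost point in 35 genes and Dcir-/- library 21 the leftmost in 33, while 26 genes have every Dcir-/- point left of every WT point.

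The 4 IFIT genes encode tetratricopeptide proteins that bind viral RNA or block its translation. They had the largest median log2 fold change of the families (-1.73). In all 4 the groups did not overlap, whereas 9.34% of all genes were lower with no overlap. Ifit1 (chr19:34640871-34650009) had 1.34, 3.81 and 4.79 CPM in Dcir-/- libraries 21, 22 and 83, against 28.8, 8.82 and 7.50 CPM in WT libraries 3, 82 and 94. Ifit2 had 4.23, 7.52 and 8.02 CPM in the Dcir-/- libraries, against 69.2, 18.0 and 11.5 CPM in the WT libraries. Ifit3 had 2.18, 4.70 and 4.83 CPM in the Dcir-/- libraries, against 41.5, 9.56 and 7.29 CPM in the WT libraries. In each, WT library 3 stands far above the other WT libraries, and Dcir-/- library 21 below the other Dcir-/- libraries. Ifit3b, the neighbour of Ifit3 with the same promoter stretch, had 0.698, 1.40 and 1.04 CPM in the Dcir-/- libraries, against 8.78, 3.05 and 2.80 CPM in the WT libraries. The log2 fold changes were -1.75 ± 0.49 (SE) for Ifit1, -1.79 ± 0.55 for Ifit2, -1.71 ± 0.55 for Ifit3 and -1.39 ± 0.34 for Ifit3b, and none passed (adjusted p from limma 0.206, 0.245, 0.261 and 0.158). Without WT library 3 Ifit3b did pass, at -0.95 ± 0.18 (adjusted p from limma 0.04). Reads of such close paralogs may have been shared between them in the counting.

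The OAS family comprises, with relatives of unlike activity, the enzymes that turn double-stranded RNA into the 2'-5' oligoadenylate signal for RNase L. Oas1a (chr5:120896256-120907521) had 13.2, 20.0 and 20.0 CPM in the Dcir-/- libraries, against 53.7, 26.0 and 25.1 CPM in the WT libraries. Oasl2, an OAS-like protein with ubiquitin-like domains, had 4.30, 8.48 and 9.22 CPM in the Dcir-/- libraries, against 62.8, 13.4 and 11.9 CPM in the WT libraries. In Oasl2 the value of WT library 3 was 4.95 times the mean of the other WT libraries, the highest such ratio of the 36. Oas3 had 8.86, 13.5 and 15.6 CPM in the Dcir-/- libraries, against 61.1, 16.4 and 14.4 CPM in the WT libraries, so the groups overlap. Oas2 averaged 16.9 ± 4.58 CPM in the Dcir-/- libraries, against 39.7 ± 25.1 CPM in the WT libraries (SD, n = 3 each), and Oasl1 2.84 ± 0.41 CPM in the Dcir-/- libraries, against 6.42 ± 3.37 CPM in the WT libraries. The log2 fold changes were -0.87 ± 0.28 (SE) for Oas1a, -1.05 ± 0.37 for Oas2, -0.94 ± 0.48 for Oas3, -0.86 ± 0.27 for Oasl1 and -1.51 ± 0.56 for Oasl2, with adjusted p from limma between 0.256 and 0.479.

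Among the other antiviral effectors, 7 of 14 had groups that did not overlap, all lower, beside 9.34% of all genes. The 7 include Ifi44, which passed the filter through the WT libraries alone. Bst2 encodes tetherin, which holds budding virus particles on the cell surface, and had the highest level per length of the 36 genes, at 51.3 CPM per kb of exon in Dcir-/- OCs and 88.9 CPM per kb in WT OCs. Bst2 had 42.8, 46.3 and 49.95 CPM in the Dcir-/- libraries, against 101, 64.3 and 75.8 CPM in the WT libraries. Both groups are tight here beside the IFIT genes, and the log2 fold change was -0.76 ± 0.15 (SE), with an adjusted p from limma of 0.104. Ifi35 had 16.2, 15.2 and 17.9 CPM in the Dcir-/- libraries, against 27.5, 22.1 and 28.5 CPM in the WT libraries. It is the one ISG of the 36 in which WT library 3 is not the highest, with WT library 94 at the top and Dcir-/- library 22 at the bottom, and its log2 fold change was -0.63 ± 0.12 (SE).

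Rsad2 encodes viperin, a radical SAM enzyme that makes a chain-terminating nucleotide, and Cmpk2 encodes a nucleotide kinase from the neighbouring locus. Rsad2 had 4.70, 9.62 and 9.29 CPM in the Dcir-/- libraries, against 54.9, 16.4 and 13.4 CPM in the WT libraries (log2 fold change -1.50 ± 0.48, SE). Cmpk2 had 2.75, 5.59 and 6.55 CPM in the Dcir-/- libraries, against 33.6, 9.90 and 6.54 CPM in the WT libraries, so that Dcir-/- library 83 and WT library 94 were level. Mx1, a dynamin-like GTPase that blocks influenza viruses and is defective in many inbred mouse strains, had 1.72, 4.70 and 5.47 CPM in the Dcir-/- libraries, against 24.2, 7.30 and 4.97 CPM in the WT libraries. Its groups overlap too. Rtp4, an interferon-induced protein of the receptor transporter family, had 6.15, 8.59 and 7.99 CPM in the Dcir-/- libraries, against 38.8, 12.6 and 16.5 CPM in the WT libraries, with no overlap (log2 fold change -1.31 ± 0.35, SE, adjusted p from limma 0.186). Isg20, an exonuclease of single-stranded RNA, and Ifi44 were low throughout. Isg20 had 0.728 to 1.26 CPM in the Dcir-/- libraries and 1.81 to 5.84 CPM in the WT libraries. Ifi44 had 0.444, 0.529 and 0.837 CPM in the Dcir-/- libraries, against 4.82, 1.84 and 1.27 CPM in the WT libraries.

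Of the remaining effectors, most had groups that overlap. Eif2ak2 encodes the kinase PKR, which halts translation on double-stranded RNA, and had 35.5, 42.1 and 41.7 CPM in the Dcir-/- libraries, against 62.2, 44.0 and 32.4 CPM in the WT libraries. The lowest value was in WT library 94, and the log2 fold change was -0.17 ± 0.20 (SE). Ifi27l2a had 17.1, 18.8 and 22.9 CPM in the Dcir-/- libraries, against 29.8, 18.4 and 20.9 CPM in the WT libraries. Samd9l, a restriction factor of poxviruses, averaged 42.5 ± 9.49 CPM in the Dcir-/- libraries, against 63.6 ± 31.6 CPM in the WT libraries (SD, n = 3 each). In all 3 genes WT library 3 was the highest and the other WT libraries lay within or near the Dcir-/- values. Parp14, an ADP-ribosyltransferase, reached 215 CPM in WT library 3, against 73.9 to 98.4 CPM in the other WT libraries, and had 55.8 to 76.0 CPM in the Dcir-/- libraries. Trim30a, a tripartite motif protein, had 28.8 to 37.9 CPM in the Dcir-/- libraries and 44.4 to 99.8 CPM in the WT libraries, with no overlap. Xaf1, which promotes apoptosis, overlapped between the groups, with 5.80 to 8.54 CPM in the Dcir-/- libraries and 8.22 to 23.0 CPM in the WT libraries.

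The ISG15 system joins a ubiquitin-like protein to others. Isg15, the modifier itself, had 3.57, 6.12 and 7.27 CPM in the Dcir-/- libraries, against 27.5, 10.4 and 9.43 CPM in the WT libraries (log2 fold change -1.22 ± 0.38, SE, adjusted p from limma 0.245). Usp18, which removes ISG15 and also damps signaling at IFNAR2, had 1.87, 3.16 and 3.98 CPM in the Dcir-/- libraries, against 15.6, 4.48 and 6.05 CPM in the WT libraries. Herc6, the ligase that attaches ISG15 in the mouse, had 14.7, 15.9 and 16.9 CPM in the Dcir-/- libraries, against 37.8, 19.3 and 18.3 CPM in the WT libraries. In all 3 genes the groups did not overlap, whereas 9.34% of all genes were lower with no overlap. For Herc6 the gap between the highest Dcir-/- and the lowest WT library was small. Usp18 lies 1.84 Mb from Clec4a2 on chromosome 6, so DNA carried along with the deleted locus and the genotype cannot be told apart at this gene.

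Of the 6 nucleic acid sensors, 5 had groups that did not overlap, all lower, beside 9.34% of all genes. The helicase genes Ddx58 (RIG-I), Ifih1 (MDA5) and Dhx58 (LGP2) encode cytosolic sensors of viral RNA. Ddx58 had 17.3, 28.2 and 28.95 CPM in the Dcir-/- libraries, against 101, 42.6 and 36.8 CPM in the WT libraries. Ifih1 had 12.6, 17.4 and 18.1 CPM in the Dcir-/- libraries, against 43.5, 21.9 and 20.0 CPM in the WT libraries. Dhx58 had 6.84, 11.4 and 11.98 CPM in the Dcir-/- libraries, against 37.5, 18.7 and 14.6 CPM in the WT libraries. The 3 helicase genes have the same order of libraries, with Dcir-/- 21 at the low end and WT 3 at the high end. Zbp1, a sensor of left-handed nucleic acids that can start necroptosis, had 1.24, 2.97 and 3.56 CPM in the Dcir-/- libraries, against 23.6, 6.47 and 5.75 CPM in the WT libraries (log2 fold change -1.65 ± 0.48, SE, adjusted p from limma 0.22). The PYHIN genes Ifi204 and Ifi207 belong to the family of AIM2, a sensor of cytosolic DNA. Ifi204 had 10.7, 16.7 and 15.3 CPM in the Dcir-/- libraries, against 81.2, 25.5 and 21.8 CPM in the WT libraries. Ifi207 had 98.5, 116 and 119 CPM in the Dcir-/- libraries, against 171, 118 and 103 CPM in the WT libraries, and its groups overlap (log2 fold change -0.20 ± 0.17, SE).

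Of the transcription factors, Irf7, which drives the later wave of interferon-alpha genes and is itself an ISG, had 8.64, 12.1 and 13.5 CPM in the Dcir-/- libraries, against 71.9, 21.6 and 20.6 CPM in the WT libraries (log2 fold change -1.43 ± 0.42, SE, adjusted p from limma 0.227). Irf9 had 20.4, 26.4 and 24.5 CPM in the Dcir-/- libraries, against 49.5, 29.4 and 30.2 CPM in the WT libraries. Stat2 had 28.9, 34.4 and 35.9 CPM in the Dcir-/- libraries, against 71.5, 37.3 and 26.9 CPM in the WT libraries. The log2 fold changes of these ISGF3 subunits were -0.56 ± 0.20 (SE) for Irf9 and -0.33 ± 0.30 for Stat2, and for Stat2 the lowest library was WT 94. Cxcl10, the chemokine that draws CXCR3-bearing lymphocytes and the one chemokine among the 36, had 3.48, 7.39 and 7.79 CPM in the Dcir-/- libraries, against 31.7, 13.7 and 11.02 CPM in the WT libraries (log2 fold change -1.38 ± 0.39, SE, adjusted p from limma 0.206).

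Single libraries set much of the size of these differences. WT library 3 was highest in 24.8% of all genes tested but in 35 of the 36 ISGs, and Dcir-/- library 21 was lowest in 17.2% of all genes but in 33 of the 36. WT library 3 was often at the other end too, as the lowest in 31.2% of all genes, but in 0 of the 36. The value of WT library 3 over the mean of WT libraries 82 and 94 had a median of 2.62 over the 36 ISGs (1.08 for Ifi35 to 4.95 for Oasl2), beside 0.983 over all genes. The value of Dcir-/- library 21 over the mean of Dcir-/- libraries 22 and 83 had a median of 0.662 (0.311 for Ifit1 to 0.975 for Ifi35), beside 0.999 over all genes. The spread thus runs inside each genotype in the same genes that differ between the genotypes. The mean of the Dcir-/- libraries over the mean of the WT libraries had a median of 0.413 over the 36 ISGs, and it was 0.63 when the Dcir-/- mean was set against WT libraries 82 and 94 alone. Over all genes too, WT library 3 stood apart, on the first principal component (53.5% of the variance). The second component (27.5%) set WT library 94 apart, which was the highest in 28.8% of all genes tested and in 1 of the 36 ISGs.

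**Figure D2:**
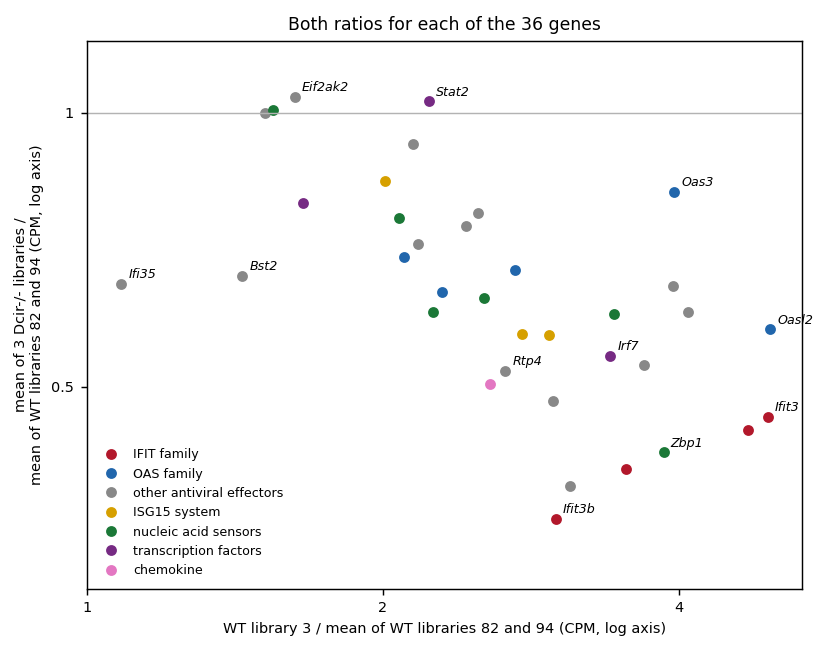
Each point is 1 of the 36 ISGs, with WT library 3 over the mean of WT libraries 82 and 94 on the horizontal axis and the mean of the 3 Dcir-/- libraries over the same WT mean on the vertical axis (ratios of CPM, both axes log). Most points lie right of 1 and below 1: the IFIT genes and Zbp1 are low on the vertical axis, Ifi35 (0.649) and Bst2 (0.662) lie left of most points, and Eif2ak2 and Stat2 lie at about 1 although WT library 3 is high.

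With WT library 3 left out, 35 ISGs were tested and 32 had a lower mean in Dcir-/- OCs. The median log2 fold change was then -0.60 (range -1.18 to 0.07), beside -0.00 over all genes. Here 4 genes passed, all lower: Bst2 (-0.58 ± 0.10, SE, adjusted p from limma 0.0283), Ifit3b (-0.95 ± 0.18, 0.04), Irf7 (-0.85 ± 0.16, 0.0404) and Rtp4 (-0.86 ± 0.16, 0.0409). Over all genes 0.625% were lower in this fit. In 25 of the 35 all 3 Dcir-/- libraries lay below both WT libraries, as was so for 15.3% of all genes. Eif2ak2, Ifi207 and Stat2 had log2 fold changes of 0.07, 0.01 and 0.05, so the direction seen in all libraries rests on WT library 3 for these 3 genes. With Dcir-/- library 21 left out as well, a setting added after the data were seen, 30 of 35 had a lower mean, beside 50.3% of all genes. The median was -0.45, and the genes that passed were Ifit1, Bst2, Rtp4 and Irf7, all lower. Over all 13755 genes tested in this fit, 91 were called lower.

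**Figure D3:**
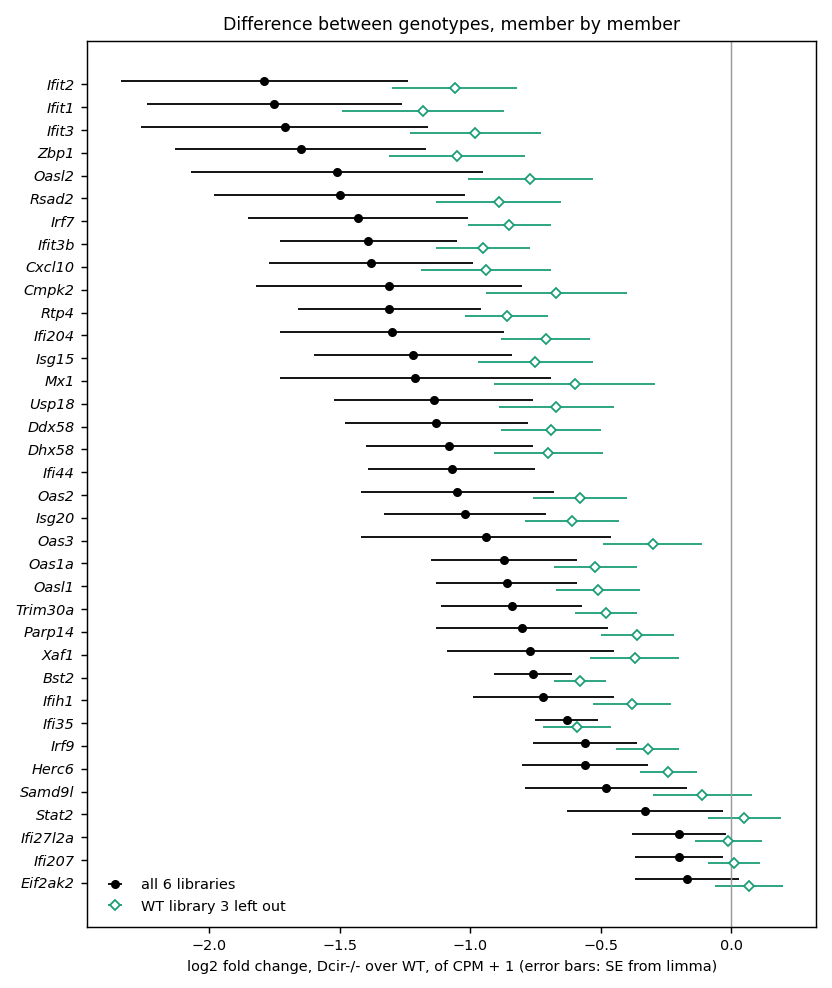
Log2 fold change of Dcir-/- over WT OCs for each of the 36 ISGs on log2(CPM + 1), with the SE from limma as error bars, from all 6 libraries (black) and without WT library 3 (green, 35 genes). Leaving out WT library 3 moves nearly every value towards 0 and narrows most error bars, and Eif2ak2, Ifi207 and Stat2 end just above 0.

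The lists of genes that carry the interferon signal had medians nearer 0 than the ISGs. Of the 9 interferon receptor and Janus kinase genes, 0 passed in either direction, 3 were lower at an unadjusted p under 0.05 and the median log2 fold change was -0.16. Ifnar1, a chain of the type I receptor, averaged 153 ± 9.45 CPM in the Dcir-/- libraries, against 175 ± 24.9 CPM in the WT libraries, and Ifnar2, its partner, 86.3 ± 3.63 CPM in the Dcir-/- libraries, against 98.9 ± 2.46 CPM in the WT libraries (SD, n = 3 each). Ifngr1, of the interferon-gamma receptor, had the smallest p of the list, with 139 ± 7.04 CPM in the Dcir-/- libraries, against 181 ± 16.4 CPM in the WT libraries (log2 fold change -0.38, adjusted p from limma 0.146). Il10rb, which serves interferon-lambda and interleukin-10, averaged 188 ± 3.32 CPM in the Dcir-/- libraries, against 215 ± 17.8 CPM in the WT libraries. The interferon genes themselves, 18 listed for type I and 3 for types II and III, were not analysed here.

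Of 8 signal transducers and interferon regulatory factors outside the 36, 0 passed, all 8 had a lower mean and the median log2 fold change was -0.17. Irf8, a lineage factor of macrophages that opposes OC formation, averaged 36.2 ± 7.39 CPM in the Dcir-/- libraries, against 60.3 ± 23.5 CPM in the WT libraries (SD, n = 3 each). Irf1 and Irf5 had log2 fold changes of -0.18 and -0.16. Of 14 tested adaptors and kinases that link sensors to interferon, 0 passed, 10 had a lower mean and the median was -0.15. The smallest p values there were those of Unc93b1, which escorts the endosomal Toll-like receptors (-0.40), of Sting1, the adaptor of DNA sensing (-0.39), of Rnf135, a ligase acting on RIG-I (-0.22), and of Tlr3 (-0.57). Of 13 negative regulators, which include Isg15 and Usp18, 0 passed, 11 had a lower mean and the median was -0.23. Trex1, a DNA exonuclease that keeps self DNA from the sensors, averaged 44.5 ± 6.39 CPM in the Dcir-/- libraries, against 65.0 ± 5.69 CPM in the WT libraries (log2 fold change -0.54 ± 0.12, SE, adjusted p from limma 0.125), and Rnaseh2b had a log2 fold change of -0.36.

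Other ISGs were listed apart from the 36, and some of them, such as Tlr7 and Ifi47, are also held by another list. Of 68 tested, 63 had a lower mean in Dcir-/- OCs and 33 were lower with no overlap (9.34% of all genes), 0 passed, and the median log2 fold change was -0.45. Ly6e, a surface protein that hinders entry of some viruses, averaged 128 ± 16.8 CPM in the Dcir-/- libraries, against 259 ± 75.4 CPM in the WT libraries (log2 fold change -0.98 ± 0.19, SE, adjusted p from limma 0.0906). Lgals3bp, a secreted galectin-binding protein, averaged 299 ± 22.2 CPM in the Dcir-/- libraries, against 449 ± 87.1 CPM in the WT libraries, and Parp10 38.6 ± 4.39 CPM in the Dcir-/- libraries, against 52.1 ± 2.71 CPM in the WT libraries. The GBP and IRG GTPases, which interferon-gamma induces most strongly and which attack the vacuoles of parasites and bacteria, all had a lower mean, 12 of 12 tested (0 passed), with a median of -0.89. Without WT library 3, 3 of 67 other ISGs and 1 of 10 GTPases passed, all lower, beside 0.625% of all genes. In the fit of all 6 libraries, where 0 GTPases passed, their smallest p values were those of Ifi47 (-1.24 ± 0.27, SE), Gbp8 (-0.95 ± 0.21), Gbp3 (-0.93 ± 0.22) and Igtp (-1.28 ± 0.32).

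The median of the macrophage markers varied across the libraries much as that of the ISGs did. The median over genes of log2(CPM + 1) minus the mean of the 6 libraries was -0.91, -0.40 and -0.26 in Dcir-/- libraries 21, 22 and 83 for the 36 ISGs, against 1.39, 0.16 and -0.00 in WT libraries 3, 82 and 94. The same median for 10 macrophage markers was -0.94, -0.32 and -0.29 in the Dcir-/- libraries, against 1.12, 0.39 and 0.04 in the WT libraries. The summed level of these markers ranged from 4044 to 4354 CPM in the Dcir-/- libraries and from 4409 to 5954 CPM in the WT libraries, and none of the 10 was at 0. Of the 10, 2 passed, both lower: C1qa and C1qc, subunits of complement C1q (log2 fold changes -1.41 and -1.36, adjusted p from limma 0.0171 and 0.0452). All 10 had a lower mean, but not every marker followed the median. Cd68 and Csf1r each had a log2 fold change of -0.01, and Cd68 was highest in Dcir-/- library 21 (1357 CPM). Of 9 neutrophil markers 4 passed, of 6 monocyte markers 1 and of 4 megakaryocyte markers 1, all lower, beside 0.292% of all genes. With single libraries left out these calls moved: without WT library 3, 5 macrophage, 5 neutrophil and 4 monocyte markers passed, without WT library 94 3, 1 and 1, and without Dcir-/- library 21, 22 or 83 or WT library 82 no macrophage or monocyte marker did, and at most 1 neutrophil marker. Lower calls over all genes moved too, from 41 to 87 without WT library 3 and 55 without WT library 94. They were 5, 1, 3 and 3 without Dcir-/- library 21, 22, 83 and WT library 82. The neutrophil markers summed to 341 to 449 CPM in the Dcir-/- libraries and 623 to 767 CPM in the WT libraries, and the monocyte markers to 134 to 144 CPM in the Dcir-/- libraries and 189 to 278 CPM in the WT libraries. Only 2 of 6 listed B cell markers were tested, and 0 passed. Their median was -0.80, -0.21 and -0.21 in Dcir-/- libraries 21, 22 and 83, against 0.59, 0.40 and 0.22 in WT libraries 3, 82 and 94. The part of these cells in the difference of the ISGs was not tested. Osteoclast markers, which include the protease gene Ctsk and the phosphatase gene Acp5, were high in every library and summed to 19147 to 24977 CPM in the Dcir-/- libraries and 18730 to 21083 CPM in the WT libraries, with 0 of 13 passing. Of these 13, 12 had a higher mean in Dcir-/- OCs and 5 were higher with no overlap (10.5% of all genes), with a median log2 fold change of 0.14. Siglech, the defining marker of plasmacytoid dendritic cells, which make much interferon, was at 0.568 to 0.672 CPM in the Dcir-/- libraries and 0.333 to 1.29 CPM in the WT libraries. Siglech is 1 of 7 listed markers of those cells and was too low to be tested. The 3 that were tested, Bst2, Tcf4 and Cox6a2, all had a lower Dcir-/- mean (-0.76, -0.31 and -0.11), and 0 passed. Tcf4 had 29.2 to 34.9 CPM in the Dcir-/- libraries and 33.8 to 48.3 CPM in the WT libraries, so its groups overlap. Bst2, which is also used to mark plasmacytoid dendritic cells, is among the 36. The part of plasmacytoid dendritic cells in the difference was not tested either.

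**Figure D4:**
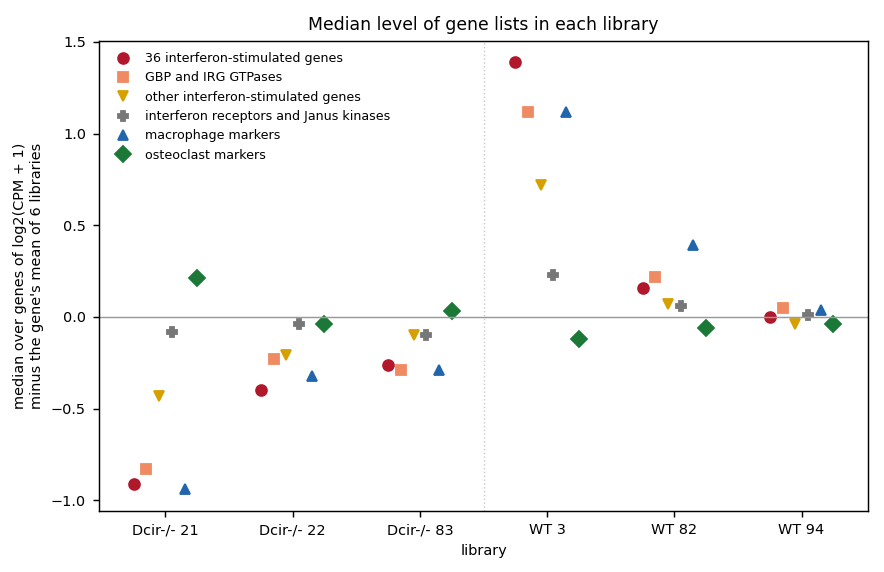
Median over the genes of each list of log2(CPM + 1) minus the gene's mean of the 6 libraries, in the 3 Dcir-/- libraries (left) and the 3 WT libraries (right). The 36 ISGs, the GBP and IRG GTPases and the macrophage markers are lowest in Dcir-/- library 21 and highest in WT library 3, while the receptors and Janus kinases stay within 0.23 of 0 and the osteoclast markers are highest in Dcir-/- library 21.

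Levels per kb of exon placed the ISGs in nearly the same order in both genotypes at the top and at the bottom. Bst2, Ifi27l2a and Ifi207 led in both, in this order, at 51.3, 42.4 and 32.5 CPM per kb in Dcir-/- OCs, against 88.9, 49.7 and 38.2 CPM per kb in WT OCs. Ifit3b, Isg20 and Ifi44 were the last, with Ifi44 at 0.0985 CPM per kb in Dcir-/- OCs, against 0.431 CPM per kb in WT OCs. In the middle the order changed: Isg15 ranked 9 in Dcir-/- OCs (7.48 CPM per kb) and 4 in WT OCs (20.8 CPM per kb), and Ifit3 ranked 20 in Dcir-/- OCs (2.24 CPM per kb) and 11 in WT OCs (11.2 CPM per kb). Given the spread of the WT libraries, neighbours in this middle range are not told apart.

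The promoter element and the size of the difference were set side by side as a description. The 6 ISGs with 2 or more ISRE matches had a median log2 fold change of -1.30, the 9 with 1 match -0.84 and the 12 with none in their window -0.94. The 6 include the related genes Ifit1, Ifit3 and Ifit3b, and Ifit3 and Ifit3b share the same promoter stretch. Ifit2, with the largest change of the 36 (-1.79), had no match. Outside the 36, the 368 tested genes with an ISRE match had a median of -0.05, and 60.9% had a lower mean and 19.8% were lower with no overlap. Only the 36 were taken out, so the 368 may still hold the other ISGs and GTPases listed above. The 9504 tested genes with no match had a median of 0.01, and 45.9% had a lower mean and 8.9% were lower with no overlap. The 792 other genes with a GAS match were close to those without one, with medians of 0.02 and 0.01.

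Counting limits remain for single genes. The libraries were made with a stranded kit, but the strand setting of the counting is not given in the sources used here. It is therefore unknown whether reads were kept apart where genes overlap on opposite strands, as Irf7 and Phrf1, Rtp4 and Masp1, Cxcl10 and Art3, Ifi35 and Gm11626, and Dhx58 and Dhx58os do. Usp18, Oas2, Oasl1, Trim30a and Eif2ak2 also overlap a noncoding or unclassified gene on the other strand. Irf9 overlaps Rnf31, Parp14 overlaps Gm49730 and Herc6 overlaps Gm45193 on the same strand.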

How the data were processed

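RNA-seq of 6 OC libraries was analysed, 3 per genotype, grouped by their labels. Per the labels and the study's methods, the authors used Trim Galore 0.6.6 for trimming, HISAT2 2.2.0 for alignment to mm10, Rsubread for exon counts and edgeR for the comparison. The deposited table gives, per gene and library, counts that the authors had adjusted to a common library size, a signal that is mostly not whole (95.8% to 99.8% of values per library). Column totals run from 33035020.2 to 34068308.6, so depth per library is unknown and precision is read from the spread between libraries. The authors' log2 fold change and FDR columns were not used.

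A count model could not be used, as the values are not raw counts. CPM is the adjusted count over the mean column total. Genes of at least 1 CPM in 3 libraries (14047) were tested on log2(CPM + 1) with limma 3.58.1 (trend) in R 4.3.3, Benjamini-Hochberg adjustment over all of them, and a threshold of 0.05. Group was the only term. The fit was tested on simulated data. Positions came from GENCODE M21, matched for 21449 of 21492 identifiers, and promoters from RefSeq GRCm38.p6.

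The 36 ISGs, the 8 pathway lists and the 11 cell type lists were chosen from textbook knowledge with earlier results of these data known. Named were all 36, the 4 tested genes of smallest limma p in each pathway list, and promoters with an ISRE match, at most 6 by mean CPM. A gene that this rule also names is not reported here. Other genes named were chosen after their values were seen. Alternatives covered the filter, pseudocount, scaling, robust and weighted fits, the threshold, and each library left out.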

Additional observations from a re-analysis of the deposited data

How the results depend on the processing

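In the fits with another filter, pseudocount, scaling, robust or weighted variance, every ISG tested kept a lower mean in Dcir-/- OCs, and 0 passed limma's adjusted threshold of 0.05. The median log2 fold change lay between -1.07 and -1.04 in these fits, except for pseudocounts of 0.1 CPM (-1.15) and 5 CPM (-0.77). At an adjusted threshold of 0.1, 1 ISG passed (Ifi35). With each library left out in turn, 0 to 4 ISGs passed, 32 to 36 had a lower mean and the median ran from -1.30 to -0.60. At an unadjusted p under 0.05 by limma, 15 (without Dcir-/- library 21) to 34 (without WT library 94) were lower. Over all genes this count moved as well, from 543 of 13933 without Dcir-/- library 21 to 1366 of 13941 without WT library 94. The 4 calls, and the values above 0 for Eif2ak2, Ifi207 and Stat2, came without WT library 3. Over the leave-one-out fits the values ran from -0.39 to 0.07 for Eif2ak2, -0.35 to 0.01 for Ifi207 and -0.64 to 0.05 for Stat2. With Dcir-/- library 21 and WT library 3 both left out, 4 passed, the median was -0.45, and Eif2ak2 (0.15), Stat2 (0.15), Ifi207 (0.09), Samd9l (0.08) and Ifi27l2a (0.08) were above 0. The cause was not tested. Over all genes, 21 were called higher and 41 lower in Dcir-/- OCs. Those counts were 11 and 22 at a filter of 5 CPM, 14 and 27 at a pseudocount of 5 CPM, 14 and 25 with weights, 39 and 73 at a threshold of 0.1, 39 and 87 without WT library 3, 47 and 91 without that library and Dcir-/- library 21, 3 and 5 without Dcir-/- library 21, 1 and 1 without Dcir-/- library 22, 3 and 3 without Dcir-/- library 83, and 6 and 3 without WT library 82. No paired analysis was possible because the library numbers of the groups are not shared. Without raw counts, the sampling error of low genes such as Ifi44, Isg20 and Ifit3b cannot be given.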

Other observations

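A few ISGs outside the 36, picked after their values were seen, were level or higher in Dcir-/- OCs. Tlr7, a receptor for single-stranded RNA, averaged 62.8 ± 19.5 CPM in the Dcir-/- libraries, against 56.5 ± 34.5 CPM in the WT libraries (SD, n = 3 each). Its log2 fold change was 0.27 ± 0.40 (SE), with an adjusted p from limma of 0.835. For Tlr7 this became 0.72 ± 0.24 without WT library 3 (adjusted p from limma 0.216) and 1.00 ± 0.17 without that library and Dcir-/- library 21 (adjusted p from limma 0.00648). For this gene WT library 3 was the highest WT library and Dcir-/- library 21 the lowest Dcir-/- library. Leaving them out therefore had to raise the difference. The setting without both was also added after the data were seen, so its adjusted p cannot decide whether Tlr7 was higher. Ifitm1, a membrane protein that hinders virus entry, averaged 16.2 CPM in the Dcir-/- libraries, against 13.3 CPM in the WT libraries (log2 fold change 0.21, adjusted p from limma 0.736). Mov10, an RNA helicase, averaged 95.5 CPM in the Dcir-/- libraries, against 85.4 CPM in the WT libraries, and Pml, the scaffold of nuclear bodies, 91.0 CPM in the Dcir-/- libraries, against 90.3 CPM in the WT libraries. Ifi27 averaged 163 CPM in both groups. In these 5 genes the groups overlapped. The order WT 3, WT 82, WT 94, Dcir-/- 83, Dcir-/- 22, Dcir-/- 21 from high to low was seen in 15 of the 36 ISGs.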
